A study of Mus musculus with 18 samples.

Results

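The regions described here are the stretches of mRNA leader (5' UTR) exons at which N4-acetylcytidine (ac4C) peaks were listed in hippocampi of 6-month-old mice. Every peak that the 6 deposited peak tables place in a 5' UTR exon was taken, and peaks of different mice were joined into a region if they shared 1 bp or more of a chromosome and strand. This gave 4285 peaks of 52494 in all, and 1573 regions of 20211. The regions lay in 1381 genes, of which 1221 had 1 region, 136 had 2 and 24 had 3 or more. Their median length was 234 bp, with quartiles of 143 and 357 bp.

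The study compared 3 wild-type (WT) mice with 3 5xFAD mice of the same age. The 5xFAD line carries mutant human transgenes, APP among them, under the neuronal Thy1 promoter and develops amyloid deposits. Whole hippocampal tissue was used, so fewer cells of a type and less RNA per cell cannot be told apart. From each mouse, fragmented RNA was captured with an anti-ac4C antibody (acRIP-seq), and an input library and an IgG capture were sequenced beside it. Fold enrichment is the deposited ratio of a peak, which the methods define as anti-ac4C minus IgG signal over input, and a mouse with no listed peak was given 0, which means not listed and not unmodified.

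ac4C is made by the acetyltransferase Nat10 on cytidines of ribosomal RNA, transfer RNA and mRNA, and in mRNA it has been linked to stability and translation. The 5' UTR is the part of an mRNA that the scanning ribosome reads before the start codon. Upstream ATG codons and stable GC-rich structure in a leader are known to lower initiation at the main start codon. In human cells, ac4C within leaders has been tied to altered initiation near upstream start sites.

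Sequences are shown for leaders that recur in the results below, because the acetyltransferase has been associated with repeats of a cytidine and any 2 following bases. For each region 30 bases on the transcript strand from its longest run of CNN triplets (C followed by any 2 bases) are given, which is the first stretch of the run where it is longer than 30 bases, 5′ to 3′, from mm10, with the triplets of the run in capitals. The first 4 belong to the most enriched leaders found in all 6 mice, Nol4l and Ttbk1 to those with long runs, and the last 2 to leaders that are described further on for which mice listed them.
Dpp9, chr17:56218825-56218854, minus strand: tgtcCCCCCGCGCCCGCCACTTCCGggccc
Wasf3, chr5:146385153-146385182, plus strand: cgccCCGCCCCCGCAGCGCCTACGCtgccc
Grik5, chr7:25072114-25072143, minus strand: CCTCTCCCCCGGCCCCAGCCTCACCAGCAC
Mgat3, chr15:80173788-80173817, plus strand: CCGCCGCCGCCGCTGCTTCTACCGCCGCTG
Nol4l, chr2:153444449-153444478, minus strand: CTCCTCCGGCGGCCGCGGCGGCAGCAGCAG
Ttbk1, chr17:46487443-46487472, minus strand: CCGCCGCCGCCGCAGCCGCAGCCGCAGCCG
Mapt, chr11:104231492-104231521, plus strand: CACCAGCTCCAGCACCAGCAGCAGCGCCGC
Rbfox3, chr11:118507299-118507328, minus strand: ccaaccCCACTGCTGCTGCCACCTggtctc

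Before the results, 2 features of the tables bear on all of them. The table of 5xFAD mouse 3 stood apart. It listed 470 of its 555 5' UTR peaks (84.7%) at a false discovery rate of 100%, while no 5' UTR peak of the other 5 mice was listed at that rate. Its lower quartile of 5' UTR fold enrichment was 10.2, against 5.65 to 6.18 in the other 5 mice. Over the 149 regions found in all 6 mice, Spearman's rank correlation of fold enrichment, a description across regions, was 0.809 to 0.889 between any 2 of the other 5 mice and 0.483 to 0.525 between 5xFAD mouse 3 and the rest. No 5' UTR peak of any mouse had a listed rate under 5%, so by this column every leader peak used here falls outside the threshold of 0.05 that the methods name. Read counts are not part of the tables, and the depth behind a peak is unknown.

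The second feature was that mice with the same replicate number shared their peaks. Of the 346 regions found in exactly 2 mice, 183 (52.9%) were found in a WT and a 5xFAD mouse of the same number, which make up 3 of the 15 possible pairs. These pairs held 69, 64 and 50 regions for numbers 1, 2 and 3, whereas the pairs of 1 genotype held 8 to 37 and the remaining pairs 1 to 13. Of the 239 regions missing from exactly 2 mice, 181 (75.7%) were missing from a pair of the same number. In the other exon classes the shares were 50.2% and 76.1%. The labels do not say what a number stands for, and what the mice of a number had in common was not tested.

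**Figure D1:**
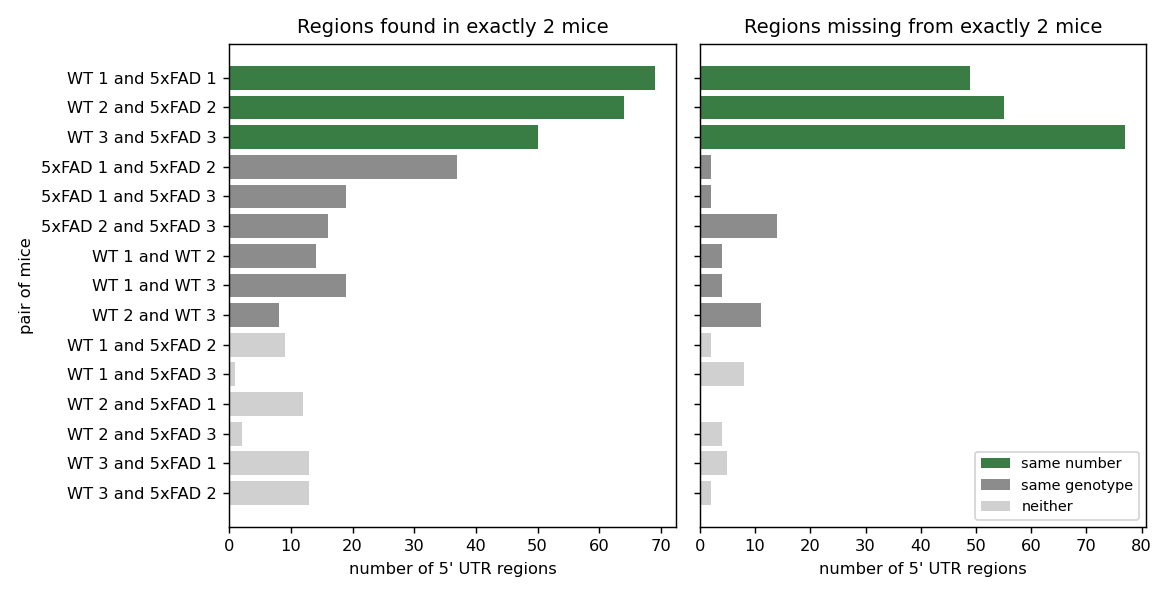
Number of 5' UTR regions (x axis) for each pair of mice (y axis), for regions found in exactly 2 mice on the left and missing from exactly 2 on the right. Green bars are WT and 5xFAD mice of the same number, dark grey bars pairs of the same genotype and light grey bars the remaining pairs; the 3 green bars reach 50 to 69 on the left and 49 to 77 on the right, above every other pair.

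Strongly enriched leaders showed this pattern as well. Of the 918 regions found in 2 to 5 mice, 364 (39.7%) were either listed or not listed alike within each of the 3 numbers. Among the 168 of them that reached a fold enrichment of at least 20 in some mouse this was so for 109 (64.9%), beside 66.0% in the other classes. The leader of Zfp706, a zinc finger gene, had fold enrichments of 42.8 and 36.0 in WT mice 2 and 3 and 70.2 and 52.8 in 5xFAD mice 2 and 3, and was not listed in either mouse 1. The leader of Cacna1i, a T-type calcium channel, measured 19.8 and 13.97 for WT mice 1 and 3 and 19.7 and 31.9 for 5xFAD mice 1 and 3, with no peak in either mouse 2. Nr4a1, an immediate early transcription factor, measured 14.7 and 12.5 for WT mice 1 and 3 and 12.9 and 12.2 for 5xFAD mice 1 and 3. For these leaders the replicate number, and not the genotype, marked the mice with a peak.

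The number of 5' UTR peaks differed more between 5xFAD mice than between genotypes. WT mice 1, 2 and 3 had 737, 678 and 678 of them, and 5xFAD mice 1, 2 and 3 had 833, 804 and 555, so that mouse 3 was the lowest and mice 1 and 2 the highest of all. The means were 698 ± 34.1 and 731 ± 153 (SD, n = 3 each; two-sided exact permutation p = 0.8). Without 5xFAD mouse 3 the difference of 33.0 peaks became 121, and without 5xFAD mouse 1 or 2 it turned to -18.2 and -3.67.

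As a share of all peaks of a mouse, 5' UTR peaks made up 8.80%, 8.58% and 9.12% in WT and 8.14%, 7.97% and 6.56% in 5xFAD. All 3 5xFAD mice lay below all 3 WT mice. The means were 8.83% ± 0.273 and 7.56% ± 0.867 (SD, n = 3 each; two-sided exact permutation p = 0.1, the smallest that 3 against 3 mice can give). Within numbers 1, 2 and 3 the differences, 5xFAD minus WT, were -0.660, -0.608 and -2.56 percentage points, and with numbers as pairs the exact permutation p was 0.25, again the smallest possible. Without 5xFAD mouse 3 the mean difference was -0.778 points instead of -1.28. The totals over which the shares were taken were 8375, 7904 and 7434 peaks in WT and 10234, 10088 and 8459 in 5xFAD, so that 5xFAD tables were longer while the 5' UTR class was not longer in every mouse.

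Within a mouse, leader peaks were as enriched as start codon peaks and more enriched than peaks further along the mRNA. The median fold enrichment of 5' UTR peaks was 7.87, 7.75 and 7.69 in WT and 8.26, 8.25 and 14.1 in 5xFAD. Relative to start codon exons of the same mouse, the log2 ratio of medians averaged 0.0003 ± 0.0319 (SD, n = 6; exact sign-flip permutation adjusted p = 0.938). Relative to internal coding exons it was 0.23 ± 0.0375, relative to 3' UTR exons 0.19 ± 0.0199 and relative to stop codon exons 0.06 ± 0.0195 (n = 6, 5' UTR higher in 6 of 6 mice each; exact sign-flip permutation adjusted p = 0.0417 each over the 4 comparisons). If mice of a number count as 1 unit, 3 units cannot give a p below 0.25.

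**Figure D2:**
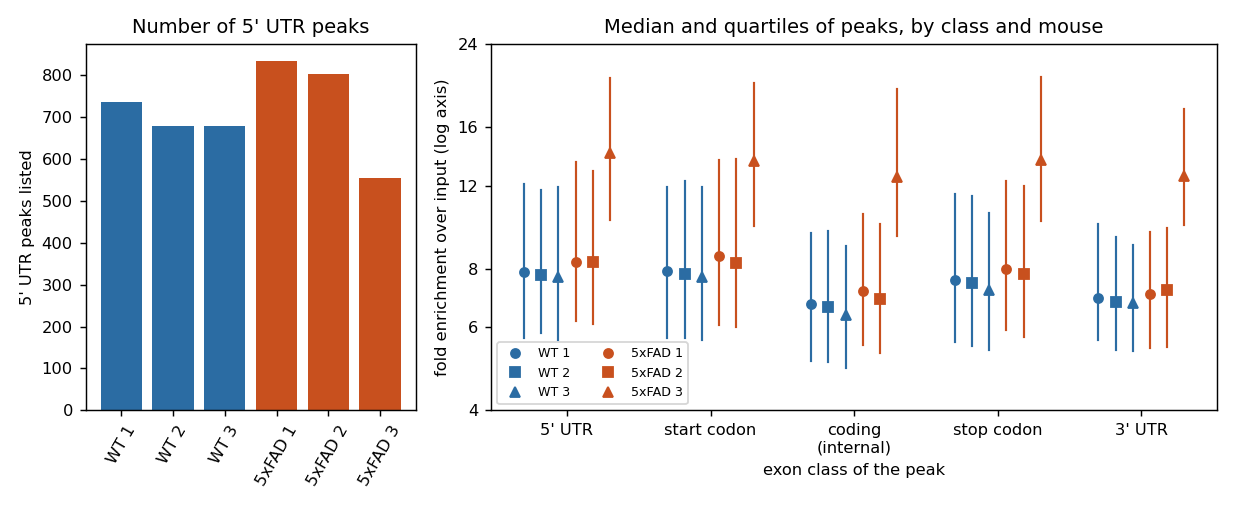
Left, number of 5' UTR peaks listed per mouse, as bars. Right, fold enrichment over input on a log axis for each exon class and mouse (blue WT, orange 5xFAD; circle, square and triangle for mice 1, 2 and 3), with points for medians and lines for the quartiles of peaks. The 5' UTR medians of 7.69 to 8.26 in 5 mice sit level with those of start codon exons, and 5xFAD mouse 3 is highest in every class, at 14.1 for the 5' UTR.

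Between genotypes, the median fold enrichment of leader peaks was 7.77 ± 0.0917 in WT and 10.2 ± 3.37 in 5xFAD (SD, n = 3 each; two-sided exact permutation p = 0.1, the smallest possible). The difference of 2.43 rested on 5xFAD mouse 3 and was 0.487 without it. It changed sign, to -1.31, when the tables were brought to a common scale by 1 factor per mouse, chosen so that regions found in all 6 mice had the same median. Relative to the other peaks of the same mouse, the log2 ratio for leaders was 0.16 ± 0.0197 in WT and 0.14 ± 0.0248 in 5xFAD (two-sided exact permutation p = 0.4), a measure on which the genotypes overlapped.

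Where a listed peak matched an annotated exon that lies wholly in a 5' UTR, first exons were more enriched than later leader exons. Median fold enrichments of first against later exons in WT were 8.25 against 6.66 in mouse 1, 8.54 against 7.0 in mouse 2 and 8.15 against 6.95 in mouse 3. The 5xFAD medians were 9.58 against 7.90, 9.36 against 6.66 and 14.5 against 13.4. The first exon was thus higher in 6 of 6 mice, over 299 to 428 first-exon and 48 to 78 later-exon peaks per mouse, in a comparison chosen after the values were seen and not tested.

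Most members fit their label. Of the 1573 regions, 1157 (73.6%) began within 50 bp of an annotated transcript start, and 1159 (73.7%) lay wholly in annotated 5' UTR and touched no coding sequence of any isoform on that strand. Another 171 (10.9%) overlapped coding sequence of a further isoform or gene, among them the first exon of Eif4g3. With or without such an overlap, 1214 regions (77.2%) lay wholly in annotated 5' UTR, and the rest did not. Of all regions, 251 began at least 1000 bp from any annotated transcript start. A peak is placed by the tables on an exon, not on bases, and 79 regions (5.02%) overlapped an exon of the opposite strand, among them the leaders of Prox1 and Brd2.

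A leader peak was often the only ac4C peak of its mRNA. Between 38.7% and 49.8% of the genes with a 5' UTR peak in a mouse had no peak of another class in that mouse. The like share was not taken for the other classes. Start codon peaks accompanied 20.8% to 25.2% of the genes with a 5' UTR peak, beside 30.8% to 41.5% of all genes with any peak. These shares are not alike, since all genes with any peak include those that entered through a start codon peak alone. Among genes with both a leader and a start codon peak, the leader peak was the higher in 53.4% to 63.9%. Spearman's rank correlation across these genes was 0.173 to 0.312 within a mouse.

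Leaders with peaks were rich in G and C. Their median GC content was 67.3%, close to the 66.3% of start codon regions and above the 54.5% of internal coding regions, 52.7% of stop codon regions and 46.6% of 3' UTR regions. All 31272 annotated exons wholly within a 5' UTR had a median of 56.5%, and the 13053 of them in genes with a peak of any class 60.8%. The median was 70.1% for the 149 regions found in all 6 mice and 64.6% for the 506 found in 1 mouse. Within a mouse, the rank correlation of fold enrichment with GC content was between 0.108 and 0.212 across regions.

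CNN repeats followed GC content. The motif searched was 4 CNN triplets in a row, on the transcript strand only, in the central 100 bases of regions at least that long. It was present in 60.5% of 1368 leader regions, 62.5% of start codon regions, 51.8% of internal coding regions and 42.5% of annotated 5' UTR exons of that length. At a GC content of 70% or more the shares were 76.6%, 77.0%, 78.1% and 70.9%. Below 50% GC they were 20.4%, 19.3%, 27.6% and 17.6%. Between 60% and 70% GC, leader regions were at 56.7%, annotated leader exons at 53.5%, start codon regions at 63.7% and internal coding regions at 68.9%.

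**Figure D3:**
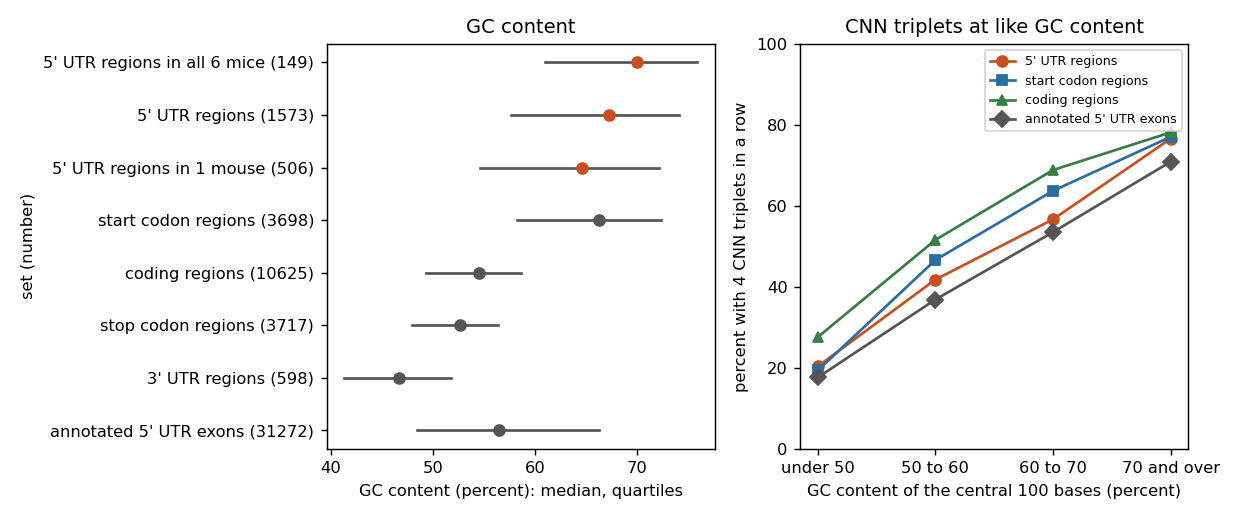
Left, GC content in percent as median (point) and quartiles (line) for sets of regions and for all annotated 5' UTR exons, with the number in each set. Right, percent of sequences with 4 CNN triplets in a row against GC content of the central 100 bases; leader regions rise from 20.4% to 76.6%, and between 60% and 70% GC they lie at 56.7%, above annotated leader exons and below start codon and coding regions.

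Among regions found in all 6 mice, the longest runs of CNN triplets were 15 triplets in Fam13b, 14 in Nol4l and Zswim6, 12 in Ttbk1 and 11 in both Grik5 and Mgat3. The regions of Zswim6 and Grik5 do not lie wholly in annotated 5' UTR. That of Zswim6 begins 268420 bp from the nearest annotated transcript start. Ttbk1, a kinase that phosphorylates tau, had fold enrichments of 31.3, 30.7 and 23.2 in WT and 36.7, 35.9 and 43.96 in 5xFAD. Nol4l ranged from 5.02 to 27.4 across the 6 mice, so a long run went with both steady and variable leaders. An ATG, whether upstream of the main start codon or not, was present in 1039 of the 1573 regions (66.1%) and in 59.5% of annotated leader exons, which are shorter. Among the 1159 regions wholly in annotated 5' UTR it was present in 719 (62.0%). In central windows of 100 bases the order was the opposite, with 37.8% for leader regions and 53.0% for annotated leader exons.

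The most enriched leaders found in all 6 mice belonged to Dpp9, Wasf3, Grik5, Rasl10b and Mgat3. Mean fold enrichment over the 149 regions ran from 5.34 to 72.0 with a median of 12.1, and 32 regions had a mean of at least 20. The highest was Dpp9, a cytosolic dipeptidyl peptidase, whose first exon (chr17:56218741-56218889, minus strand) measured 51.3, 64.6 and 48.5 among WT and 72.4, 77.4 and 118 among 5xFAD mice. Wasf3, which encodes the actin regulator WAVE3, followed at 67.9, 61.2 and 46.9 in WT and 70.5, 58.2 and 93.2 in 5xFAD. Before any scaling, every 5xFAD mouse was above every WT mouse for Dpp9, and likewise for Rasl10b, Fut8 and Tmem184b, whereas Wasf3 overlapped. The same held for 59 of the 149 leaders (39.6%), beside 38.9% of regions of all classes, so it does not set these genes apart.

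Grik5, a kainate-type glutamate receptor subunit, had 54.6, 63.8 and 49.3 in WT and 91.8, 64.95 and 43.4 in 5xFAD, with 5xFAD mouse 3 the lowest of all. The leader of Prox1, the homeobox factor that marks dentate granule neurons, had 51.0, 48.4 and 39.2 in WT and 45.5, 59.4 and 27.6 in 5xFAD. Both overlapped between genotypes. Mgat3, which adds the bisecting sugar to N-glycans, lay between 35.0 and 55.8, and Fut8, which fucosylates the core of N-glycans, between 25.6 and 54.0. Rasl10b, Csdc2 and Tmem184b lay between 34.7 and 60.3, 31.4 and 49.5, and 24.96 and 43.9. Zc3h7b was at 15.7 to 28.1 in 5 mice and at 99.8 in 5xFAD mouse 3, and its region overlaps an exon of the opposite strand. The regions of Grik5, Fut8 and Zc3h7b do not lie wholly in annotated 5' UTR.

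**Figure D4:**
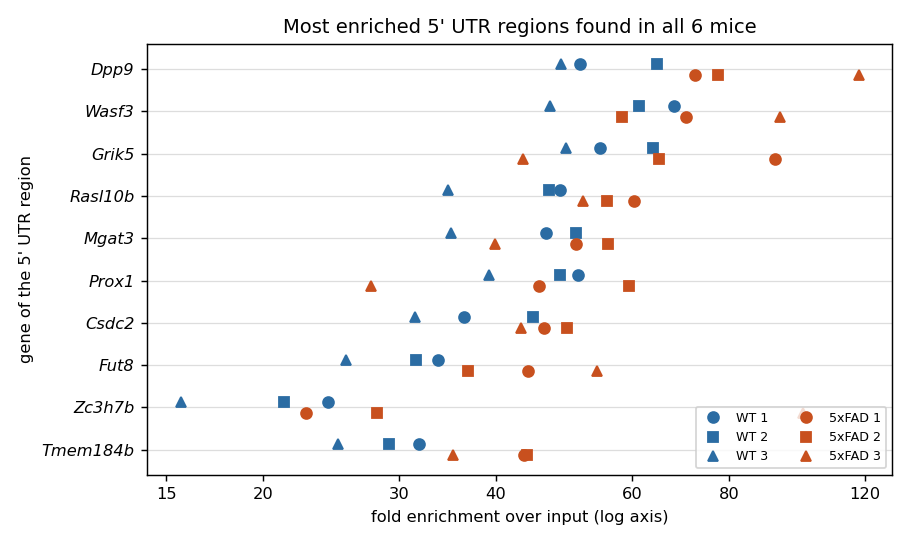
Fold enrichment over input (log axis) in each mouse for the 10 leaders with the highest mean among those found in all 6 mice, 1 row per gene. Blue points are WT and orange points 5xFAD mice, with circle, square and triangle for mice 1, 2 and 3; Dpp9 ranges from 48.5 to 118 with WT below 5xFAD, and for Zc3h7b only 5xFAD mouse 3 lies apart at 99.8.

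Across the 149 leaders found in all 6 mice, fold enrichment tended to be higher in 5xFAD before any scaling and no leader passed the test. limma was run on log2(fold enrichment + 1) over all 1711 regions of every class found in all 6 mice, with Benjamini-Hochberg adjustment, and called 0 leaders at an adjusted p under 0.05 (0.0% of all regions called), with a smallest adjusted p among leaders of 0.143. At an unadjusted p under 0.05, 29 leaders (19.5%) were higher in 5xFAD, beside 23.8% of all regions, and 0 were lower, beside 0.117%. Every 5xFAD mouse lay above every WT mouse for 59 leaders (39.6%), beside 38.9% of all regions, and below for 0, beside 0.234%. The median log2 fold change of leaders was 0.43 and that of all regions 0.49.

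These counts moved with the scale of the tables. On the common scale an unadjusted p under 0.05 was reached by 8 leaders in the higher and 7 in the lower direction, and the median log2 fold change became -0.09. When the numbers entered limma as a replicate block, 17 leaders passed that p in the higher direction and 0 in the lower, and 0 were called. 5xFAD mouse 3 held the highest value of the 6 mice in 93 of the 149 leaders and the lowest in 16. Without it, 11 leaders of 214 were called by limma, all higher in 5xFAD, beside 91 of 2234 regions of all classes. They were Ahnak, Apbb1, Cnot11, Csk, Dlgap3, Gpr137b, Rrbp1, Ube3b, Wasf2, Wipf1 and Zfp710, a list named after its values were seen.

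The leaders with the smallest unadjusted p values in 5xFAD against WT were those of Rrbp1, Wasf2, Zfp710, Cnot11 and Gpr137b. Rrbp1, a ribosome-binding protein of the endoplasmic reticulum, measured 15.3, 16.1 and 13.97 among WT mice and 30.1, 35.7 and 49.3 among 5xFAD mice. Its log2 fold change was 1.26 ± 0.272 (SE; limma adjusted p = 0.143). Wasf2, which encodes WAVE2, a relative of WAVE3, measured 6.39, 6.01 and 5.65 among WT and 13.6, 13.1 and 20.2 among 5xFAD mice, a log2 fold change of 1.22 ± 0.267 (limma adjusted p = 0.143). The genotypes did not overlap for either leader, and neither passed the adjusted threshold. Values higher in 5xFAD without overlap were seen for 39.6% of leaders found in all 6 mice, beside 38.9% of such regions of all classes.

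Zfp710, a zinc finger gene, had 4.37, 6.49 and 4.87 in WT and 12.4, 10.6 and 15.1 in 5xFAD. Cnot11, a subunit of the CCR4-NOT deadenylase, had 7.09, 6.86 and 5.39 against 14.3, 11.96 and 21.1. Gpr137b, a lysosomal membrane protein, had 9.58, 7.44 and 9.58 against 15.3, 19.9 and 28.7. The regions of Cnot11 and Gpr137b also overlap annotated coding sequence. Their log2 fold changes were 1.13, 1.15 and 1.14. On the common scale these 5 leaders kept their direction, with log2 fold changes of 0.73 for Rrbp1, 0.72 for Wasf2, 0.64 for Zfp710, 0.64 for Cnot11 and 0.62 for Gpr137b. They were picked for their small p from the same values, so the kept direction is no separate check of them.

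In the lower direction the 5 leaders with the smallest p differed little between genotypes. They were Wdr7, Prox1, Rere, Ncoa5 and Mpp6, with log2 fold changes of -0.19, -0.12, -0.08, -0.05 and -0.05 and unadjusted limma p of 0.516 to 0.858. All 5 overlapped between genotypes. For Wdr7, a partner of the vesicular proton pump, the values were 21.4, 14.5 and 11.8 in WT and 13.2, 12.8 and 14.4 in 5xFAD. None of the 5 differences held its sign when each mouse was left out in turn.

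Most leaders were not found in every mouse. Of the 1573 regions, 506 (32.2%) were found in 1 mouse, with a median highest fold enrichment of 6.33, and the 149 found in all 6 (9.47%) had one of 19.7. The 834 regions found in at least 2 of 3 mice of a genotype (called reliable regions here, with no filter on matched RNA-seq) divided into 470 of both genotypes, 183 of WT only and 181 of 5xFAD only. WT only thus made up 21.9% of reliable leaders beside 16.5% of reliable regions of all classes, and 5xFAD only 21.7% beside 28.4%. For internal coding exons the split was 790 and 1625, and for start codon exons 404 and 390.

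**Figure D5:**
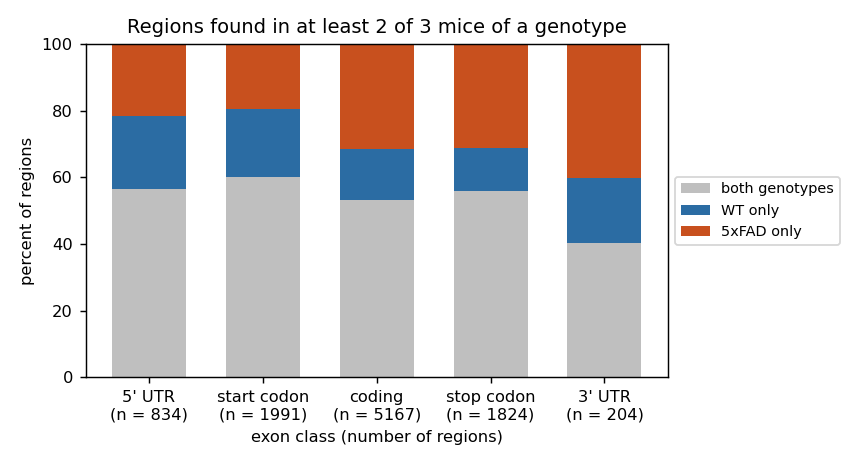
Percent of reliable regions (y axis) found in both genotypes (grey), in WT only (blue) and in 5xFAD only (orange), for each exon class with the number of regions. For the 5' UTR the WT only and 5xFAD only parts are 21.9% and 21.7%, and for internal coding exons 15.3% and 31.4%.

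The near balance for leaders did not hold with the same number of top-scoring peaks taken from each mouse. There were then 224 leaders of WT only and 104 of 5xFAD only. Leaving out a mouse cannot show whether the balance holds. A genotype left with 2 mice needed a peak in both, so by this rule its own part shrinks and the other grows. Leaving out WT mouse 1, 2 or 3 gave 66, 94 and 73 of WT only and 355, 358 and 318 of 5xFAD only. Leaving out 5xFAD mouse 1, 2 or 3 gave 400, 399 and 308 against 68, 75 and 106. No test was made on these counts, since regions are not replicates of a genotype.

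Over the 834 reliable leaders, limma on all 10020 reliable regions again called 0 (0.0% of all regions). The smallest limma adjusted p among leaders was 0.0806, for a leader listed in WT only, with 0 for its unlisted 5xFAD mice. Such a p is no test of the genotypes, since zeros stand for unlisted peaks and have no spread. At an unadjusted p under 0.05, 26 leaders (3.12%) were higher in 5xFAD, beside 4.59% of all regions, and 8 (0.959%) lower, beside 0.569%. Every 5xFAD mouse stood above every WT mouse for 102 leaders (12.2%), beside 13.8% of all regions, and below for 8 (0.959%), beside 0.689%. Leaving out 5xFAD mouse 3 raised the calls to 61 of 759 leaders, beside 833 of 8835 regions of all classes, every one in a leader that lacked any peak in WT or in the 2 remaining 5xFAD mice. A pseudocount of 0.1, the common scale, and centring each mouse on its median raised them to 22, 18 and 12, beside 287, 216 and 126 of the 10020 regions, again each in a leader listed in a single genotype, whereas with the replicate block 0 were called.

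A peak in 3 of 3 mice of a genotype and in no mouse of the other was seen for 7 leaders of WT (0.445% of 1573, beside 0.237% of regions of all classes) and 15 leaders of 5xFAD (0.954%, beside 1.19%). No fold or p is given for each of them, since they were picked for having 1 genotype listed at 0. The WT leaders with the largest means were Eif4g3, Arntl, Fam195b, Dedd and Pum2. Eif4g3, a scaffold of the cap-binding initiation complex, had fold enrichments of 61.4, 67.2 and 40.2 in WT at its first exon (chr4:137993022-137993627, plus strand) and no peak in 5xFAD. This region overlaps annotated coding sequence. A later leader exon of the same gene, at chr4:138057949-138058077, was found in all 6 mice at 10.8 to 17.99. This later exon overlaps annotated coding sequence as well.

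Arntl, which encodes the clock factor BMAL1, had 13.2, 12.8 and 11.3 in WT at a later leader exon. 5xFAD mouse 2 listed a start codon peak of Arntl 1067 bp away at 6.00. Pum2, an RNA-binding repressor of translation, had 5.70, 7.47 and 6.89, and Dedd, a death effector domain protein, 6.82, 6.95 and 8.15. No other peak lay within 2000 bp of these 2 leaders in the 5xFAD mice. Fam195b had 8.57, 7.12 and 8.16, but each 5xFAD mouse listed a peak of the neighbouring gene Ppp1r27 on the same strand 247 bp away, at 10.7, 10.8 and 13.9.

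The 5xFAD leaders with the largest means were Rbfox3, Brd2, Htr2c, L1cam and Rcbtb2. Rbfox3, the splicing factor also known as the neuronal marker NeuN, had 18.6, 15.8 and 61.6 in 5xFAD at a first exon (chr11:118507209-118507353, minus strand), and WT mouse 1 listed a coding peak of the gene 1448 bp away at 15.95. Brd2, a bromodomain protein that binds acetylated histones, had 21.1, 8.18 and 43.6, while WT mouse 1 listed a different Brd2 leader peak 173 bp away at 7.49 and WT mice 1 and 3 start codon peaks 294 bp away at 7.93 and 12.7. Neither leader is a clean case of a signal present in 1 genotype and absent from its surroundings in the other.

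L1cam, a neuronal adhesion molecule, had 10.2, 14.8 and 23.9 at its first exon in 5xFAD, but all 3 WT mice listed a start codon peak of the gene 155 bp away, at 11.3, 12.02 and 8.17. Both genotypes thus had a peak near the start of this gene, listed under different exons. Htr2c, a serotonin receptor, had 4.81, 11.8 and 35.2 in 5xFAD, and Rcbtb2 had 10.1, 8.17 and 18.01. No WT peak lay within 2000 bp of either. Cntn2, an axonal adhesion molecule with 7.78, 6.57 and 13.3 in 5xFAD, was also listed in no WT mouse. Its region does not lie wholly in annotated 5' UTR.

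Neighbouring peaks of this kind were not rare. For the 7 leaders of WT there were 21 instances of a region and a mouse that lacked it, and in 4 of them another peak was listed within 2000 bp. For the 15 leaders of 5xFAD this was so in 7 of 45 instances, and for all leaders missing from some mouse in 517 of 5153 (10.0%). Of the 4 WT instances, 3 were the Ppp1r27 peaks beside Fam195b.

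Some genes carried several leader regions, in different exons. Rbfox3 had 4 reliable leaders besides 2 found in 1 mouse, Taok3, Phc2 and R3hdm2 had 3 each, and Wasf3 had 2. Besides the leader described above, Rbfox3 had a first exon (chr11:118909304-118909572) at 35.6 and 27.4 in WT mice 2 and 3 and 38.97 in 5xFAD mouse 2. A further exon of it (chr11:118670649-118670753) measured 20.8 and 12.7 for WT mice 1 and 3 and 24.99 and 37.7 in 5xFAD mice 1 and 3. No leader of Rbfox3 was found in all 6 mice, although each mouse had at least 1.

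Phc2, a Polycomb subunit, had 3 leaders in all 6 mice, with every 5xFAD value above every WT value in each before any scaling. This was so for 39.6% of the leaders found in all 6 mice, beside 38.9% of such regions of all classes. The second Phc2 leader overlaps annotated coding sequence, and neither it nor the third lies wholly in annotated 5' UTR. The 3 leaders ranged over 5.96 to 7.73, 9.42 to 12.1 and 5.54 to 9.02 in WT and over 9.37 to 12.4, 15.1 to 26.4 and 9.03 to 12.5 in 5xFAD. Taok3, a stress-activated kinase, had 3 leaders in all 6 mice, of which the most upstream overlapped between genotypes at 15.6 to 18.04 in WT and 11.5 to 20.2 in 5xFAD. The most downstream Taok3 leader overlaps annotated coding sequence. R3hdm2 had 2 leaders in all 6 mice, both overlapping, and 1 found in 5xFAD only, at 5.46, 4.63 and 11.5.

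Synaptic genes had leader regions in a larger share than all genes with a peak, a difference that was not tested. Of 50 postsynaptic density and glutamate receptor genes with any peak, 17 (34.0%) had a leader region, beside 1381 of 7598 genes (18.2%) in all. Their 13 reliable leaders divided into 8 of both genotypes, 2 of WT only and 3 of 5xFAD only, and 0 of them passed an unadjusted limma p under 0.05. Dlgap4, a scaffold partner of PSD-95, ran from 12.2 in 5xFAD mouse 3 to 49.4 in 5xFAD mouse 1, with WT at 20.04 to 32.5. Of 38 presynaptic release genes with a peak, 12 (31.6%) had a leader region, among them Rph3a at 14.2 to 17.4 in WT and 16.04 to 26.2 in 5xFAD, and Erc2 at 12.6 to 14.3 and 10.8 to 26.6.

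In the inhibitory group 6 of 17 genes with a peak (35.3%) had a leader region. Gabra2, a GABA-A receptor subunit, was found in all 6 mice at 16.1, 13.3 and 10.7 in WT and 17.7, 20.9 and 17.6 in 5xFAD. These did not overlap before any scaling, as for 39.6% of leaders found in all 6 mice and 38.9% of such regions of all classes. Voltage-gated and leak channels had leader regions in 8 of 50 genes, near the share of all genes. Axon guidance and adhesion genes had them in 17 of 66 (25.8%), with Ptprf at 10.1 to 12.8 in WT and 18.5 to 28.7 in 5xFAD and Sema4d at 7.12 to 8.24 and 10.6 to 18.8. Small GTPase regulators had them in 19 of 69 (27.5%), and neuronal transcription factors in 12 of 46 (26.1%), among them Nr4a3, at 48.3 in WT mouse 3 and 133 in 5xFAD mouse 2 and in no other mouse.

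Chromatin regulators had leaders in 18 of 78 genes (23.1%), with 15 reliable, and ubiquitin ligases and deubiquitinases in 22 of 74 (29.7%), with 15 reliable. The corepressor Ncor1 measured 18.7 to 23.2 among WT and 20.4 to 29.3 in 5xFAD. Splicing and RNA-binding genes had them in 12 of 50, and Zfp and Zkscan zinc finger genes in 29 of 137 (21.2%). Among these Zfp865 was at 12.5 to 16.1 in WT and 19.2 to 39.8 in 5xFAD. An unadjusted limma p under 0.05 was reached by at most 2 leaders of each of these 4 lists in the higher direction and by at most 1 in the lower, and 0 were called.

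Initiation factor genes had leader regions in a smaller share than the 18.2% of all genes with a peak, a difference that was not tested. Of 10 ribosomal protein genes with a peak, 1 (Rpl29, in 5xFAD mouse 3) had a leader region, too few genes to set beside that share. Of 32 initiation factor genes with a peak, Eif4g3 was the only one with a leader region. Its 3 regions all overlap annotated coding sequence. In a list of 31 mRNAs known for control through their leaders, 15 had a peak and 3 a leader region, a share near that of all genes: Mapt, Azin1 and Alas2. Mapt, which encodes tau, measured 32.7 and 27.9 for WT mice 1 and 2 and 34.9, 25.98 and 71.9 for the 5xFAD mice, and was not listed in WT mouse 3. Azin1, an antizyme inhibitor of polyamine control, was at 12.97 in WT mouse 2 and at 12.8 and 10.6 in 5xFAD mice 1 and 2.

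Of 24 respiratory chain genes with a peak, 2 had a leader region, each in 1 mouse. Nat10 itself had no leader peak, and the 2 enzymes of RNA modification that did, Adarb1 and Zc3h13, had each region in 1 mouse. Among Alzheimer disease risk genes, 7 of 34 with a peak (20.6%) had a leader region. In the lysosome and autophagy list 7 of 38 genes (18.4%) had one, with the more upstream of 2 leaders of Tfeb, the regulator of lysosomal genes, at 5.55 and 6.33 in WT mice 1 and 2 and 8.51, 10.8 and 18.8 in 5xFAD.

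The tissue label was checked against markers through the listed peaks, which report anti-ac4C capture over input and not a level of expression. Of 7 hippocampal neuron markers, Prox1 and Rbfox3 had leader peaks in all 6 mice, and 2 to 4 of the 7 had any peak. Leader peaks were at 0 for all 24 vascular and choroid plexus markers in every mouse. Of 23 homeostatic microglia markers, 1 had a leader peak in each WT mouse (P2ry12) and 2 or 3 in each 5xFAD mouse, with summed fold enrichments of 4.07 to 6.97 and 11.2 to 60.7. Counting peaks of any class, 4 to 9 of them had a peak in WT and 11 to 13 in 5xFAD, with sums of 44.6 to 83.9 and 246 to 302. The any-class sums of the other lists were also higher in every 5xFAD mouse than in any WT mouse, at 113 to 144 against 212 to 335 for vascular, 95.7 to 152 against 164 to 242 for astrocyte, 204 to 308 against 321 to 395 for oligodendrocyte and 96.2 to 178 against 183 to 253 for neuron markers.

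Of 30 disease-associated microglia markers, 1 or 2 had a leader peak in any mouse, and 5 to 7 had a peak of any class in WT against 8 to 14 in 5xFAD. Ctsb, a lysosomal protease on that list, had a leader in all 6 mice, with 7.02, 6.80 and 10.3 among WT and 9.94, 10.1 and 17.9 among 5xFAD mice. Astrocyte markers had leader sums of 8.33 to 13.01 in WT and 11.1 to 32.5 in 5xFAD, from Slc1a3 and, in WT mouse 3, Mlc1, with 1 or 2 of 19 listed. Oligodendrocyte markers had sums of 8.95 to 16.5 and 12.9 to 21.8 with 1 or 2 of 22. How far other cell types account for leader peaks was not tested.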

How the data were processed

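The anti-ac4C, input and IgG libraries of 6 mice (18 libraries) gave 6 peak tables. Per the labels and methods, the authors used FastQC, cutadapt 1.9.3, HISAT2 2.04, build mm10, and MACS with each mouse's own input, kept peaks on exons of coding genes, and dropped those that overlapped IgG peaks. The deposited fold enrichment is a ratio that the methods define as anti-ac4C minus IgG signal over input, with no scaling between mice stated. Whether the deposited column holds that subtraction was not tested. The deposited score, a scaled -log10 of the caller's p, was at least 40. The deposited FDR, in percent, was not used as a filter.

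Regions were merged within an exon class, and where a mouse had several peaks in a region the highest was used. limma 3.58.1 (R 4.3.3) compared genotypes on log2(fold enrichment + 1), which understates changes of weak regions. Single values used exact permutation tests. Deviations from genotype means were taken over the 834 reliable leaders, with 0 for an unlisted peak. They correlated at 0.53, 0.59 and 0.33 for mice numbered 1, 2 and 3. Over the 1711 regions in all 6 mice these correlations were 0.09, -0.02 and -0.01, beside -0.05 to 0.06 for mice of unlike numbers. Pairing by number was thus seen in which peaks were listed, and little of it in how enriched shared regions were. Sequence came from GRCm38.p6 with GENCODE vM21, through pysam 0.24.0. On simulated data for the 1711 regions in all 6 mice, limma called 55 of 100 regions changed by 1 log2 unit and 92 of 100 changed by 2. It also called 9 of 1511 unchanged regions. The simulation gave both genotypes the same spread and did not cover regions missing from a mouse, so these rates need not hold here. Among leaders in all 6 mice the median SD of log2 fold enrichment was 0.234 in WT and 0.395 in 5xFAD. Leaders named in the text are the 10 most enriched, the smallest p per direction, those found in 1 genotype, the genes with most leaders, the longest CNN runs and the highest members of each gene list. Members, gene lists and rules were chosen with earlier results of these data known. Columns of the tables with gene descriptions and pathway terms were not used. The labels number replicates and do not say that each is 1 animal, so p-values measure the spread between these samples, which are called mice here. Some items of the strain description and some genes are not reported here.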

Additional observations from a re-analysis of the deposited data

How the results depend on the processing

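No paired or unpaired setting of the permutation tests between genotypes could reach p under 0.05. On the common scale the difference in median fold enrichment was -1.31, and the median log2 fold changes of leaders were -0.12 (reliable regions) and -0.0876 (regions in all 6 mice). The log2 ratio of leaders over other peaks differed by 0.0078 between genotypes when scores under 50 were dropped, 0.0331 with the same number of top peaks, 0.0174 when fold enrichments under 4 were dropped and 0.000426 with peaks wholly in annotated 5' UTR, against -0.0193. The 5' UTR against internal coding, stop codon and 3' UTR exons ranged from 0.22 to 0.24, 0.0580 to 0.0671 and 0.19 to 0.20 without a mouse, with adjusted exact permutation p = 0.0833, the smallest 5 mice allow; against start codon exons it ran from -0.0107 to 0.00896, below 0 without 5xFAD mouse 2 (-0.000872) or 3. Without 5xFAD mouse 1 or 2 the difference in peak number was -18.2 and -3.67, and without 5xFAD mouse 3 it was 121. Leaders of WT only ran from 66 to 400, of 5xFAD only from 68 to 358 and of both from 253 to 345 without a mouse, and 5xFAD only was 104 with the same number of top peaks. A genotype left with 2 mice needed a peak in both.

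For reliable leaders without a mouse, calls ran from 0 to 61, and those at an unadjusted p under 0.05 from 19 to 63 higher and 9 to 26 lower; 61 and 63 came without 5xFAD mouse 3, and 15 to 26 lower without a WT mouse or 5xFAD mouse 1. Calls were 18 on the common scale, 12 with centring and 22 with a pseudocount of 0.1. With the same number of top peaks 12 were higher and 14 lower, on the common scale 16 were higher, and with annotated 5' UTR only 5 were lower. The median log2 fold change ran from -0.23 to 0.62, and was below 0 without 5xFAD mouse 1 (-0.23) or 2 (-0.19). For leaders in all 6 mice, calls ran from 0 to 11 without a mouse, with 11 without 5xFAD mouse 3, and 15 to 50 were higher. On the common scale 8 were higher and 7 lower, with centring 13 higher, and with the replicate block, which pairs mice by number, 17 higher. Otherwise the block changed no call: it gave 27 higher (26 without it) and 8 lower among reliable leaders, and a mean difference of 33.0 peaks, -1.28 points of share, 2.43 in median fold enrichment and -0.0193 in the log2 ratio. Without a mouse, Prox1 ran from -0.36 to 0.18, Wdr7 from -0.37 to 0.0345, Ncoa5 from -0.19 to 0.0810, Rere from -0.28 to 0.25 and Mpp6 from -0.24 to 0.19, each on the log2 scale. The causes were not tested beyond the construction of each setting. With no read counts, depth limits could not be given.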
